A study of Caenorhabditis elegans with 2 samples.

Results

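HLH-4 binding was examined at 7 genes known for expression or reporters in the ADL neurons of Caenorhabditis elegans: sre-1, srh-132, srh-220, srh-234, nhr-79, ver-2 and eat-4. They are 7 genes beside the 19973 protein-coding genes of the annotation, chosen as known ADL-expressed genes or reporters. No value measured here entered that rule, but earlier results of these data were known when the genes were chosen. ADL is a pair of head sensory neurons that respond to repellents and pheromones. HLH-4 is a transcription factor related to the proneural proteins Achaete and Scute, and genetic work names it as a regulator of ADL identity. Achaete-Scute factors bind DNA as dimers with an E-protein, at short sites called E-boxes. sre-1 and the srh genes encode chemoreceptors, nhr-79 a nuclear hormone receptor, and eat-4 the vesicular glutamate transporter that makes a neuron glutamatergic. ver-2 is related to vascular endothelial growth factor receptors and is listed as a pseudogene in the annotation used here.

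The data are chromatin immunoprecipitation and sequencing (ChIP-seq) of 2 biological replicates, which form 1 group. The animals were hermaphrodite first-stage (L1) larvae of strain OP523 (unc-119(tm4063) III; wgIs523), in which an integrated transgene makes HLH-4 with a GFP-FLAG tag at its C terminus. They were synchronised by bleaching and starvation, collected 6 hours later and used whole, with an antibody against GFP. The promoter of the transgene is not named in the labels, no untagged group is analysed here, and read depth is unknown. In whole animals, a site bound in few cells and a site bound weakly in many cannot be told apart.

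Each replicate and the pooled replicates have a list of 30000 regions, ranked here by the authors' signal value with rank 1 the strongest. These lists hold peaks together with background, so a low-ranked region is not by itself a binding site. The authors' optimal set, which passed their irreproducible discovery rate (IDR) analysis, holds 545 peaks, and these are ranks 1 to 545 of the pooled list, with signal values of 43.1 to 379.5. A region was assigned to a gene when its summit lay in the gene body or within 5000 bp upstream of the gene start. Positions are on ce11. In what follows, E-box means the hexamer CAGCTG or the hexamer CACCTG, searched on both strands. On the opposite strand the second of these reads CAGGTG, and sites of either spelling are called the CACCTG class. A hexamer is a match of letters, not a shown binding site.

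Of the 7 genes, sre-1 alone carried an optimal peak, and that peak lay on an E-box at the gene start. Over all protein-coding genes, 4.45% had an optimal peak in the same kind of window, and 1 of 7 is not read as a property of the group. The other 6 genes had no region above rank 5119 in the pooled list. All 3 srh genes carry a CACCTG-class E-box within 100 bp upstream of the start, and no region of any list overlapped it. Over all 938 genes with such an E-box, a region of any list overlapped it at 31.9%, so absence was the more common outcome. Among srh genes alone it was not, since a region of any list overlapped the E-box at 46 of 86. The distance of 100 bp was chosen after these positions had been seen.

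E-boxes near the gene starts are shown first because the results turn on whether a region lies on them. For every gene but sre-1, the site is the nearest E-box upstream of the start. For sre-1 it is the E-box under the optimal peak, downstream of the start, and was picked for that reason. Each line reads 5′ to 3′ on the strand of its gene, with the E-box in capitals and 12 bases on either side. The sites are sre-1 at chrII:7709702-7709731 (plus strand, 10 bp downstream of the start), srh-132 at chrV:17410185-17410214 (plus strand), srh-220 at chrIV:3978094-3978123 (minus strand), srh-234 at chrV:7651898-7651927 (minus strand), nhr-79 at chrV:19212212-19212241 (minus strand), ver-2 at chrIII:150324-150353 (minus strand) and eat-4 at chrIII:9136213-9136242 (plus strand).
sre-1: aaaaaacgaattCACCTGtcacagcaaact
srh-132: tctggtttgcaaCAGGTGaaatttgacaat
srh-220: aatttacattttCACCTGctgcgtattttt
srh-234: caaactcaaaatCACCTGtccatggtcaga
nhr-79: acataaaaacagCACCTGcatgtgcgcttt
ver-2: aaagctgtgttaCACCTGcaatttgatgaa
eat-4: acctaaccacaaCAGGTGttaaatattgat

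All 7 sites shown are of the CACCTG class. The nearest upstream E-box of sre-1, not shown, is a CAGCTG at 657 bp, in no region of any list. The E-box lies 53 bp upstream of the start at srh-132 and at srh-234, 91 bp at srh-220, 139 bp at ver-2, 329 bp at nhr-79 and 657 bp at eat-4. Of these 7 sites, the sre-1 site lies in an optimal peak, as it was picked to, and the eat-4 site in a low-ranked region of the pooled list. The ver-2 site is overlapped by a region of replicate 2 alone, and the other 4 by no region of any list.

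The optimal peak at sre-1, a G-protein-coupled chemoreceptor gene (chrII:7709704-7711504, plus strand), ranked 223 in the pooled list with a signal value of 71.0. The overlapping region ranked 465 in replicate 1, with a signal value of 22.7, and 282 in replicate 2, with a signal value of 38.0. The replicates thus both placed it among their 545 strongest regions. Signal values of different lists are not compared, because no source used here gives their normalization. The pooled summit lay 2 bp upstream of the gene start, the replicate 1 summit 5 bp downstream and the replicate 2 summit 5 bp upstream. The E-box begins 12 bp from the pooled summit, in the 5′ UTR of sre-1. The −log10 q-value that the authors deposited for the peak was 2.17. For the other pooled regions at the ADL genes it ranged from 0.116 to 0.323.

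The sre-1 window held 3 more regions of the pooled list, and none of them overlapped a region of replicate 1. The strongest, at rank 4050 (signal value 22.5), had its summit in an intron of sre-1, 983 bp downstream of the start, and ranked 13786 in replicate 2. Another at rank 22112, with its summit in a coding exon 1602 bp downstream of the start, overlapped a region of replicate 2 at rank 3853. The summit of that replicate 2 region lay 1686 bp downstream, with no E-box within 50 bp. The pooled region held a CAGGTG within 50 bp of its own summit. That site, at chrII:7711269-7711298 on the plus strand, is shown because it is the only other E-box near a summit of the pooled list at sre-1.
sre-1 gene body: taataatattttCAGGTGttgtgctctatc

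The last of the 3 lay 2591 bp upstream at rank 14909, in the 3′ UTR of luc-7L, a gene related to splicing factors, whose start was nearer at 370 bp. The 5000 bp upstream of sre-1 hold 2 E-boxes. The CAGCTG at 657 bp was in no region of any list, and the CACCTG at 2443 bp, inside luc-7L, lay in the region at rank 14909.

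**Figure D1:**
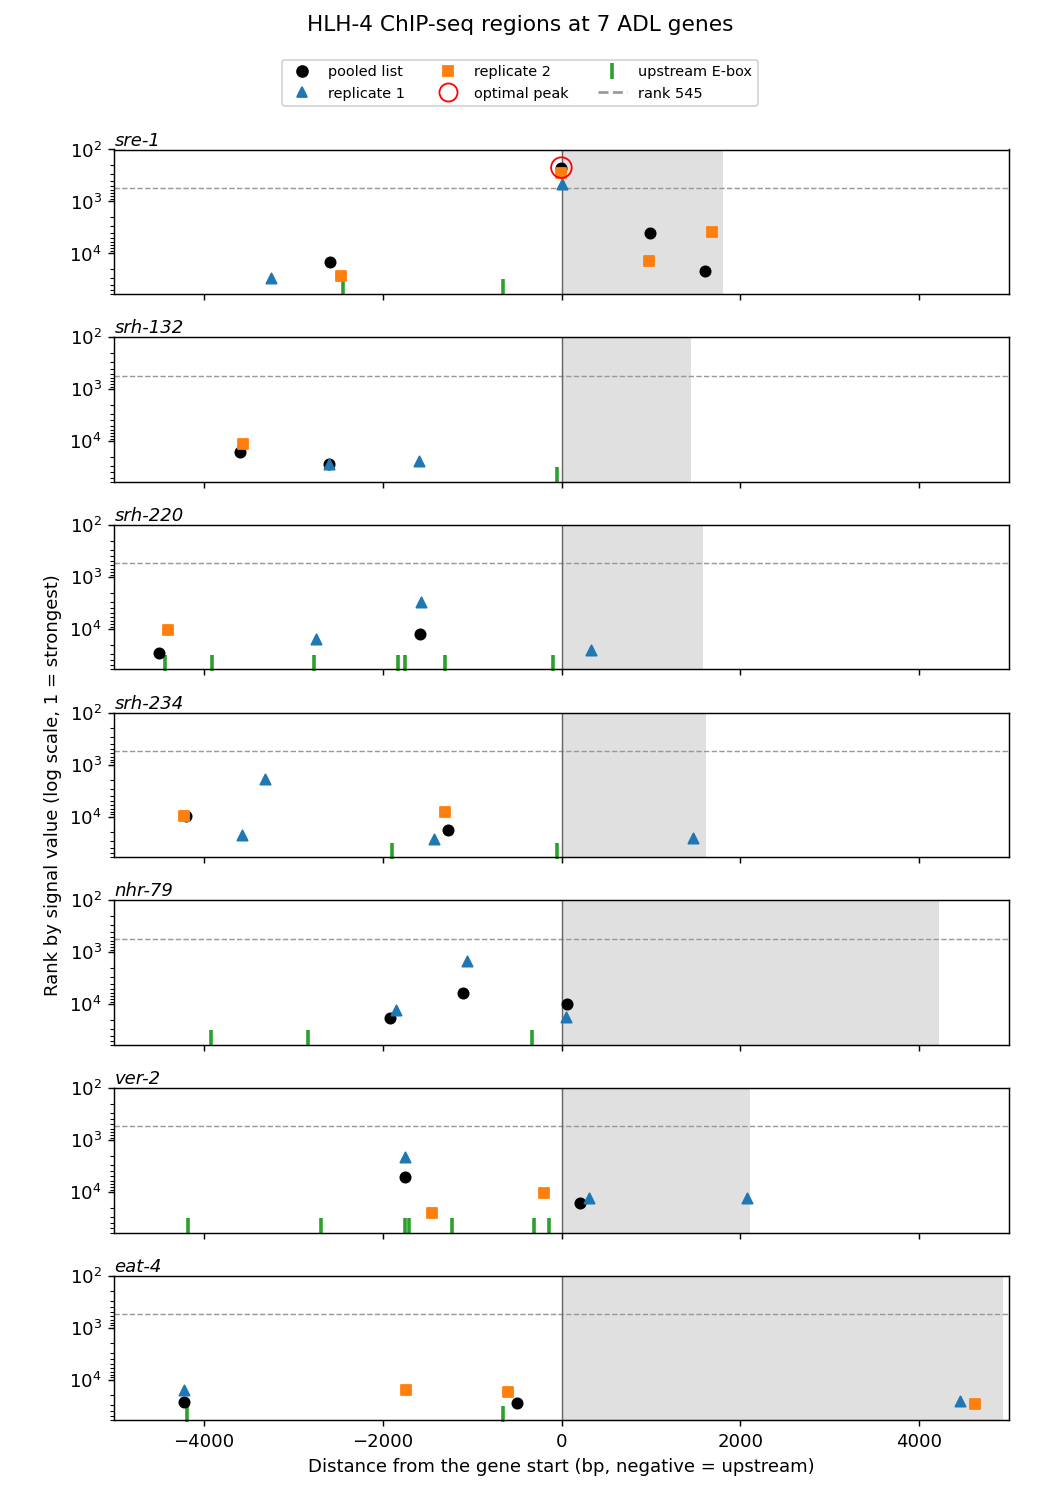
Summits of all regions at the 7 genes by distance from the gene start (x axis, bp, negative upstream) and rank by signal value (y axis, log scale, strongest at the top), for the pooled list (circles), replicate 1 (triangles) and replicate 2 (squares). Grey marks the gene body, green ticks the upstream E-boxes, the dashed line rank 545; only the sre-1 peak at rank 223 lies above that line.

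The 3 srh genes, of a large nematode chemoreceptor family, had weak regions far from their starts. srh-132 (chrV:17410255-17411705, plus strand) had regions at ranks 16234 and 27224 of the pooled list, with signal values of 15.5 and 12.6, and their summits lay 3595 and 2598 bp upstream. The stronger overlapped a region of replicate 2 at rank 11528 and the weaker a region of replicate 1 at rank 27105, and neither was in both. The stronger summit lay in an intron of srz-50, a chemoreceptor pseudogene.

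srh-220 (chrIV:3976429-3978015, minus strand) had pooled regions at ranks 12374 and 29077, with signal values of 16.9 and 12.3. Both summits, 1588 and 4505 bp upstream, were nearer to the starts of its neighbours srh-222 (222 bp) and srh-223 (619 bp) than to its own. The stronger was found in replicate 1 at rank 3065 and not in replicate 2, and the weaker in replicate 2 at rank 10489 and not in replicate 1. The replicate 2 region, with its summit 4406 bp upstream in a coding exon of srh-223, held an E-box within 50 bp of the summit, while the pooled region did not. Replicate 1 alone had a region at rank 15656, 2746 bp upstream in a coding exon of srh-222, also with an E-box within 50 bp of its summit. Another region of replicate 1 alone lay in the body of srh-220, 326 bp downstream of the start, at rank 25381.

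srh-234 (chrV:7650242-7651857, minus strand), a gene known for expression in ADL that depends on feeding state, had pooled regions at ranks 9598 and 17765, with signal values of 18.2 and 15.01. Their summits lay 4203 and 1272 bp upstream, beyond or inside the neighbouring chemoreceptor gene srh-200, whose start was nearer to both. The region at rank 17765 was 1 of 3 at the 7 genes found in both replicates, at rank 27318 in replicate 1 and 8240 in replicate 2. The strongest region of replicate 1 at srh-234 ranked 1859, 3311 bp upstream, and overlapped no region of the pooled list assigned to the gene.

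The sequence directly upstream of the 3 srh genes is shown because each holds an E-box with no region on it. The lines give the 100 bases before the gene start, on the gene's strand, at chrV:17410155-17410254 (srh-132), chrIV:3978016-3978115 (srh-220) and chrV:7651858-7651957 (srh-234), with the E-box in capitals.
srh-132: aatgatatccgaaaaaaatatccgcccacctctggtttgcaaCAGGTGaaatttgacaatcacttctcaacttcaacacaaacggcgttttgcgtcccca
srh-220: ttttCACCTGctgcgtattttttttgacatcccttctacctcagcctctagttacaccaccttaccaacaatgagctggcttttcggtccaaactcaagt
srh-234: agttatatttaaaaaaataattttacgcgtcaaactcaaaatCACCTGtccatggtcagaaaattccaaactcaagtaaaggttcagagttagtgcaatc

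Measured to the middle of the hexamer, the nearest summit of the pooled list was 2543 bp from the E-box at srh-132, 1494 bp from that at srh-220 and 1216 bp from that at srh-234. An E-box within 100 bp upstream was present at 3 of the 7 genes, against 4.7% of all protein-coding genes, a distance chosen after these positions had been seen. It was also present at 86 of the 220 protein-coding srh genes (39.1%) and 22 of the 54 sre genes (40.7%), so the 3 srh genes share it with many of their family. Among those 86 srh genes, a region of some list overlapped the E-box at 46, and an optimal peak did so at 10. srh-132, srh-220 and srh-234 were among the rest. Over all 938 genes with such an E-box, the shares were 31.9% for a region of any list and 3.62% for an optimal peak.

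nhr-79 (chrV:19207676-19211895, minus strand) had 3 pooled regions, all found in replicate 1 and none in replicate 2. The strongest ranked 6027 with a signal value of 20.5, 1097 bp upstream in intergenic sequence, and 1455 in replicate 1. The region nearest to the start, 65 bp downstream in a coding exon, had pooled rank 9720 and replicate 1 rank 17737. The third, at rank 18280, lay 1915 bp upstream in a coding exon of srr-2, a chemoreceptor gene. The list of replicate 2 had no region at all in this window. None of the 3 E-boxes upstream of nhr-79 lay in a region of any list.

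ver-2 (chrIII:148087-150197, minus strand) had the strongest region after sre-1 when genes are ordered by their best rank. It ranked 5119 with a signal value of 21.4 and lay 1750 bp upstream, in intergenic sequence on the far side of the pseudogene srz-7. It held 2 E-boxes within 50 bp of the summit, and the summit lay inside the CAGGTG. The 101 bases around the summit, at chrIII:151897-151997 on the minus strand, are shown with both in capitals because no other pooled region at the 7 genes held more than 1.
ver-2: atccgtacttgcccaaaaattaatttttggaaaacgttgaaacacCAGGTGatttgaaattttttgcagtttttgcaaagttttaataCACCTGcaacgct

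The replicates differed on this region. In replicate 1 the overlapping region ranked 2113 with a signal value of 15.05, and its summit lay 1756 bp upstream, close to the pooled summit. In replicate 2 the overlapping region ranked 25121 with a signal value of 8.69, with its summit 1454 bp upstream and no E-box within 50 bp. A region of replicate 2 at rank 10443, 196 bp upstream, overlapped the E-boxes at 139 and 311 bp, which no region of replicate 1 or the pooled list overlapped. The other pooled region at ver-2 ranked 15904, lay 201 bp downstream of the start and was found in replicate 1 alone, at rank 13030.

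eat-4 (chrIII:9136887-9141827, plus strand) had the lowest-ranked best region of the 7 genes. Its 2 pooled regions ranked 26460 and 28073, with signal values of 12.8 and 12.5 against a lowest value of 12.1 in the list. The stronger lay 4225 bp upstream, with a CAGCTG within 50 bp of the summit, and was found in replicate 1 at rank 15432 and not in replicate 2. The start of another gene, ZK512.10, was nearer to it, at 1774 bp. The weaker lay 502 bp upstream and was found in replicate 2 at rank 17206 and not in replicate 1. The E-box at 657 bp fell inside the weaker region, with its middle 157 bp from the summit. The stronger site, at chrIII:9132612-9132712 on the plus strand, is shown as the only CAGCTG near a pooled summit at the 7 genes.
eat-4: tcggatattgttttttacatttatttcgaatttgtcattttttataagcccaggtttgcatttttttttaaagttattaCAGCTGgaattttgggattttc

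Of the 17 pooled regions at the 7 genes, 3 were found in both replicates (17.6%), 7 in replicate 1 alone and 7 in replicate 2 alone. Over the whole pooled list, 31.4% of regions overlapped a region in both replicates. The 3 were the sre-1 peak, the srh-234 region at rank 17765 and the ver-2 region at rank 5119. Replicate ranks lay far apart for the ver-2 region (2113 and 25121) and also differed for the srh-234 region (27318 and 8240). Those of the sre-1 peak lay close together. Requiring a much larger overlap than 1 bp left 2 regions found in both replicates. The 16 regions other than the sre-1 peak ranked from 4050 to 29077 with a median of 16069, and had signal values of 12.3 to 22.5. No region of these 16 came near the lowest optimal peak, at 43.1.

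**Figure D2:**
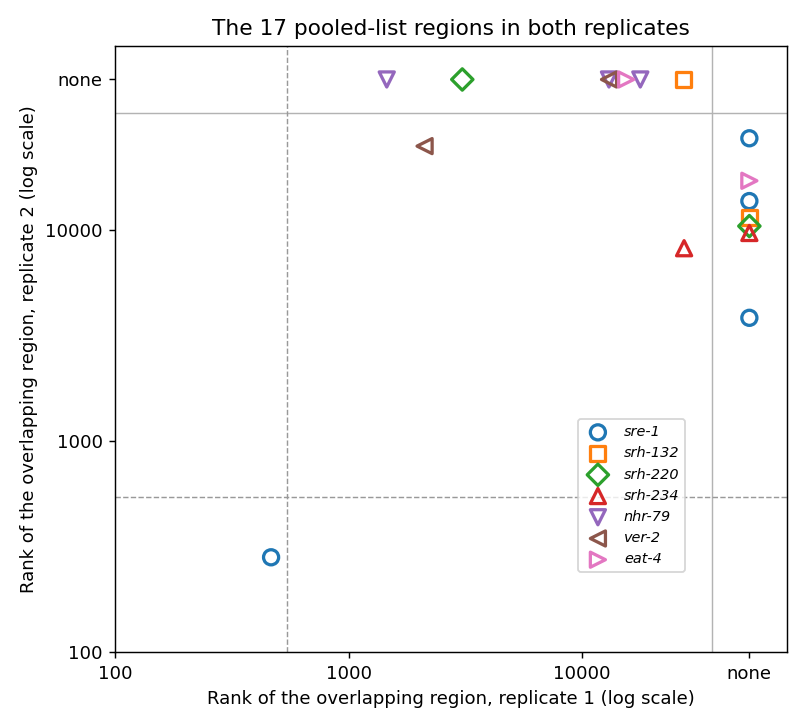
Rank of the overlapping region in replicate 1 (x axis) and in replicate 2 (y axis), both on log scales, for the 17 pooled-list regions, with a symbol for each gene; "none" marks a list without an overlapping region. Only the sre-1 peak, at ranks 465 and 282, lies inside rank 545 (dashed lines) in both replicates, and 14 regions are missing from 1 of the lists.

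Of the 17 pooled regions, 4 (23.5%) had an E-box at most 50 bp from the summit, against 6.28% of the whole pooled list and 49.7% of the optimal peaks. These were the sre-1 peak, the weak region in the body of sre-1, the ver-2 region at rank 5119 and the eat-4 region at rank 26460. In the replicate lists, 4 of the 19 regions of replicate 1 and 3 of the 13 regions of replicate 2 had one. The shares over the whole replicate lists are not given here. Those of replicate 1 were at sre-1 (rank 465), srh-220 (15656), ver-2 (2113) and eat-4 (15432), and those of replicate 2 at sre-1 (282 and 27368) and srh-220 (10489).

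The replicate lists held further regions not described so far, none of them with an E-box within 50 bp of the summit. In replicate 1 these were a region 3251 bp upstream of sre-1 at rank 29874, one 1599 bp upstream of srh-132 at rank 24383, and one 3568 bp upstream of srh-234 at rank 22985. Replicate 1 also had regions near the ends of 3 genes, 1471 bp downstream of the start of srh-234 at rank 25946, 2077 bp downstream of that of ver-2 at rank 12795 and 4453 bp downstream of that of eat-4 at rank 25236. In replicate 2 they were at eat-4, 1735 bp upstream at rank 15561 and 4625 bp downstream of the start at rank 29269.

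Several of the pooled regions lay nearer to other genes. Of the 15 pooled regions at the 6 protein-coding genes, 6 had a summit nearer to the start of another protein-coding gene. The windows upstream of 5 of the 7 genes hold another protein-coding gene, so part of what was counted may belong to neighbours.

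The upstream sequence of the 7 genes holds 24 E-boxes, from 1 at srh-132 to 7 each at srh-220 and ver-2. Their median of 2 for each gene equals the median of all protein-coding genes, with quartiles of 1 and 3, and 87.5% of all genes have at least 1. Of the 24, 7 lay in a region of the pooled list (29.2%), against 12.5% of the E-boxes upstream of all protein-coding genes, and 17 were left without one. No E-box of the 24 lay in an optimal peak, since the site under the sre-1 peak is downstream of the start. The 2 E-boxes upstream of eat-4 were both in weak regions, and those upstream of srh-132, srh-234 and nhr-79 were all outside. With the lists of both replicates added, 10 of the 24 lay in some region and 14 in none. The share over all genes for the combined lists is not given here, so these counts are not read further. Of the 7 E-boxes upstream of srh-220, 4 lie inside coding exons of srh-222 or srh-223.

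The bases beside the E-box were compared with those at the optimal peaks, a comparison chosen after the frequencies had been seen. Read as CACCTG, 49.8% of the 237 sites of this class at optimal summits had T before and C or T after the hexamer. The share was 20.3% of 439 sites at lower-ranked regions (from rank 15000). It was 16.1% of the 16120 sites upstream of protein-coding genes and outside optimal summits. Of the 18 CACCTG-class sites upstream of the 7 genes, 7 (38.9%) had these bases. They include the proximal sites of srh-132, srh-220 and srh-234. Of these 7 sites, only the one 2443 bp upstream of sre-1 lay in a region of any list. The other CACCTG-class sites upstream of the 7 genes that lay in a region of some list lacked these bases. The site under the sre-1 peak, printed above, has T on both sides and is not among the 18. The nearest upstream sites of nhr-79, ver-2 and eat-4, read as CACCTG, lack the T before the hexamer.

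Set among all protein-coding genes, sre-1 stood high and the other 6 genes did not. A region ranked above that of sre-1 was present at 372 of 19973 genes (1.86%). The corresponding shares were 30.8% for ver-2, 34.7% for nhr-79, 48.5% for srh-234, 56.7% for srh-220, 66.1% for srh-132 and 81.0% for eat-4. The median best rank was 9598 for the 7 genes and 10094 for all protein-coding genes. The windows had a median length of 6801 bp for the 7 genes and 7027 bp for all, and 3190 genes had no region.

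In the replicate lists the order of the genes changed. sre-1 was first in both, with 3.83% of genes above it in replicate 1 and 2.32% in replicate 2. In replicate 1, nhr-79 came next with 10.8% of genes above it, followed by srh-234 with 13.6%, ver-2 with 15.3% and srh-220 with 21.2%. In replicate 2, srh-234 came next with 44.2%, ver-2 and srh-220 had 51.8% and 52.0%, and nhr-79 had no region. eat-4 had 67.3% in replicate 1 and 65.0% in replicate 2, and srh-132 had 81.9% in replicate 1 and 55.2% in replicate 2. Of the 7 genes, only sre-1 had under 10% of genes above it in both lists.

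**Figure D3:**
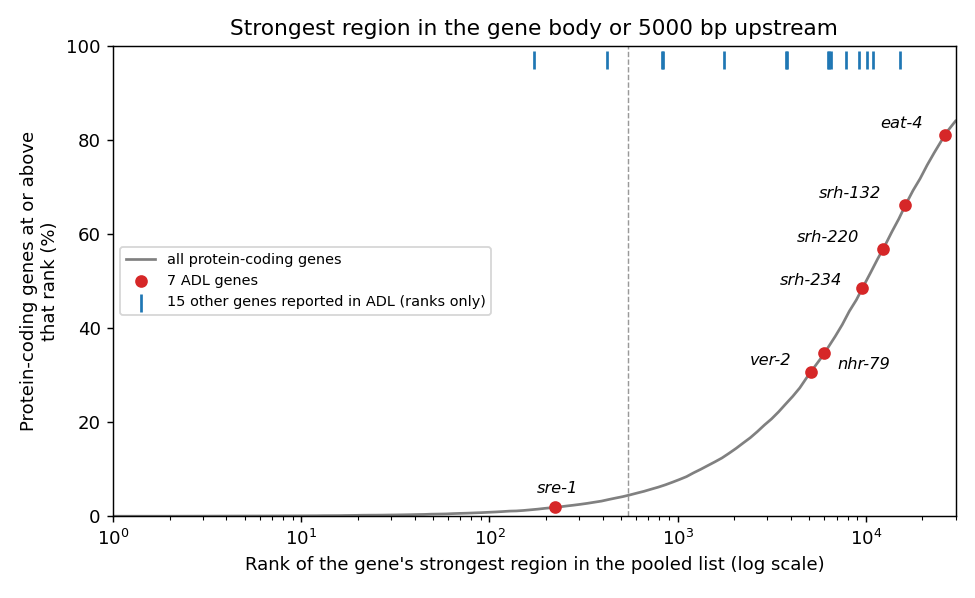
Share of all protein-coding genes (y axis, %) whose strongest pooled-list region ranks at or above the rank on the x axis (log scale), with the 7 ADL genes as red points on the curve and the best ranks of 15 other genes reported in ADL as blue ticks at the top. sre-1 lies left of rank 545 (dashed line), and the other 6 genes lie on the steep part of the curve between ranks 5119 and 26460.

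Genes with a pattern like that of sre-1 were looked for by the distance between pairs of replicate ranks, on a log10 scale over the 2 replicates, among 877 other protein-coding genes with an optimal peak in their window and in both replicates. The nearest 3, B0495.7, B0495.9 and luc-7L, were neighbours whose windows hold the sre-1 peak itself. Among genes at other peaks, named after this was seen, the nearest were B0285.3, lcmt-1 and hse-5, which share a peak at ranks 508 and 278 (distance 0.039). Next came the chemoreceptor genes srz-19 and srz-20 with F56D6.14 and F56D6.23, which share a peak at ranks 493 and 259 (distance 0.045).

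Of 15 other genes reported in ADL, 2 carried an optimal peak, the TRPV channel gene osm-9 and gpa-3, which encodes a G protein alpha subunit of sensory neurons. The background share is again 4.45%, and these 15 genes have longer windows, with a median of 8245 bp. The gpa-3 peak had pooled rank 173, replicate 1 rank 223 and replicate 2 rank 165, with its summit 796 bp downstream of the start and a CAGCTG within 50 bp. The osm-9 peak ranked 420, with 299 in replicate 1 and 836 in replicate 2, 228 bp upstream with a CACCTG. Next were gpa-1 and gpa-11, also G protein alpha subunit genes, at ranks 827 and 833. The gpa-1 region ranked 362 in replicate 2 and had none in replicate 1, and the gpa-11 region ranked 3242 in replicate 1 and 1137 in replicate 2. The median best rank of the 15 genes was 6265. No gene of the 15 had an E-box within 100 bp upstream, against 4.7% of all protein-coding genes. With 15 genes and so low a share, this is not read further. The upstream sequences of the 15 genes hold 40 E-boxes, of which 14 (35%) lay in a pooled region. Over all protein-coding genes the share was 12.5%.

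By family, an optimal peak lay in the window of 5 of 54 protein-coding sre genes (9.26%). The same held for 29 of 220 srh genes (13.2%) and 19 of 269 nhr genes (7.06%), against 4.45% of all protein-coding genes. Windows of neighbouring genes can hold the same peak, so these are counts of genes and not of separate peaks. sre-1 is 1 of the 5 sre genes, and its peak was weaker than that at sre-41, at rank 3. The 3 srh genes and nhr-79 were among the genes of their families without one.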

How the data were processed

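The authors deposited headerless peak lists on ce11 and ce10. Per the descriptive text deposited beside them, the authors made each region list from the alignments of 1 replicate, or of both, with a control, and the optimal peaks from the replicate lists and the pooled list. Aligner, peak caller, versions and depth: not given in the sources used here. The authors' deposited signal value, of unstated normalization, served only to rank regions inside 1 list. The −log10 q-value per region was made by the authors before deposit, by steps not stated. It is printed for the sre-1 peak and as a range for the other pooled regions. Summits are the deposited offsets. The ce10 lists were not used. The labels call the replicates biological and do not say whether the cultures were separate.

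Regions were placed on the WBcel235 sequence and Ensembl release 115 genes with Python 3.11.15, NumPy 2.4.6 and pandas 2.3.3. ver-2 and nlp-10 took their symbols from the RefSeq gene at the same position. Sequences are from RefSeq's WBcel235 genome. E-boxes were searched within 50 bp of summits and within 5000 bp upstream of starts. Regions overlap when they share at least 1 bp. With 1 group of 2 replicates no test was run; counts are set beside all genes or regions. Counting was tested on simulated data. The members and lists were chosen with earlier results of these data known. Named are the 7 members, the other ADL genes with an optimal peak and the 2 next in rank, and the 3 genes nearest to sre-1 in replicate ranks, with genes nearer to a region than the member. Genes at other peaks like that of sre-1, other neighbours and sre-41 were named after their values were seen.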

Additional observations from a re-analysis of the deposited data

How the results depend on the processing

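Taking the 545 strongest regions of either replicate alone in place of the optimal set gave 1 gene again, and so did the other 4 alternatives for this count, which could hardly change it because the sre-1 peak lies at the gene start with rank 223. Of 39 recomputed counts, 28 lay within 1.5 times the count given. With 2000 bp upstream plus the gene body, the pooled regions numbered 11 against 17, the upstream E-boxes 15 against 24 and those outside regions 11 against 17. A window reaching 2000 bp before and 500 bp past the start held 9 regions, 2 of them with an E-box. Among pooled ranks 1 to 15000 there were 8 regions, 2 with an E-box. Cutting the upstream sequence at the nearest other protein-coding gene left 11 E-boxes outside regions. Counting any CANNTG gave 7 regions with an E-box, 167 upstream E-boxes and 137 outside regions. CACGTG counted as well, chosen after seeing the data, gave 31 upstream E-boxes and 23 outside regions. By construction, shorter windows lower all these counts, and fewer regions lower the counts of regions. E-boxes outside regions numbered 20 with pooled ranks 1 to 15000 alone. Depth is unknown, so a gene without a strong region here is not shown to be unbound.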

Other observations

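CACGTG, the E-box with a CG centre that was left out of the counts above, occurred 7 times upstream of the 7 genes, and 4 of these lay upstream of srh-220, at 298, 380, 538 and 3764 bp from the start. The first 3 lie in the intergenic sequence between srh-220 and srh-222. Of the 7, 6 lay outside the regions of the pooled list, and the exception, 3478 bp upstream of srh-132 in the pseudogene srz-50, lay in the region at rank 16234. The GC content of the 5000 bp upstream ranged from 31.9% at srh-234 to 37.3% at ver-2.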
